A study of Xenopus tropicalis with 18 samples.

Results

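The 150 genes described here had higher counts in coccyx than in hypochord at stages 61 and 65 of metamorphosis while still being counted in hypochord at both stages. They were chosen from 19921 genes listed in 12 libraries. The 37 last genes of the tables and the 100 most abundant genes were left out first, which left 19784. A gene then had to have a count above 0 in each of the 4 late hypochord libraries, a mean of at least 8 CPM (counts per gene scaled by the library's total count) over the 8 late libraries, and a lowest coccyx CPM above its highest hypochord CPM. Of the 219 genes that met this, the 150 with the largest difference of mean log2(CPM + 1), coccyx minus hypochord, are the members, and they are referred to by their rank in that difference. "Late" stands for stages 61 and 65, and "early" for stages 56 and 58. The choice used the early libraries only in the mean over 12 libraries that set the 100 most abundant genes.

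The study measured RNA in coccyx and hypochord of wild-type (WT) Xenopus tropicalis tadpoles at stages 56, 58, 61 and 65. Tissue was frozen, cut out by laser capture and amplified into sequencing libraries by a method made for very small RNA inputs. The libraries used here are, for each tissue, 1 of stage 56, 1 of stage 58, 2 of stage 61 and 2 of stage 65. The other 6 of the 18 libraries, replicate 3, were not used here because their gene identifiers could not be matched to these. All groups share the same genotype and no treatment is given in the labels.

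The urostyle is the rod of bone behind the sacrum of frogs. It forms at metamorphosis, when the tail is lost, by fusion of the coccyx, which derives from vertebral elements, with the hypochord, a rod that lies ventral to the notochord and ossifies. Metamorphosis is driven by thyroid hormone, which acts on skeleton, muscle, skin and nervous system at the same time.

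None of the identifiers could be paired with a gene name: 0 were found in the RefSeq gene table, and the files give no names. Roles of single members and pathways are therefore not described, the tissues could not be checked against marker genes, and 4 members only are given by identifier. In tissue pieces such as these, fewer cells of a type and less RNA per cell cannot be told apart. Nothing in the labels tells if the replicates are separate animals, and p-values here reflect sample-to-sample spread that may be technical in origin.

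The 12 libraries held 1918822 to 7271829 counts. Coccyx libraries had at least 1 count in 13246 to 13919 genes, late hypochord libraries in 11003 to 11644, and the early hypochord libraries in 7376 and 7508. The amplified reads carry no molecular identifiers, so limits given for a count of 0 cover counting error only.

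The members took a larger share of the counts in every coccyx library than in any hypochord library, at the early stages too. In coccyx their counts made up 1.02% of the stage 56 library, 2.56% of the stage 58 library, 2.63% and 0.751% of the stage 61 libraries (replicates 1 and 2), and 1.94% and 3.80% of the stage 65 libraries. In hypochord the shares were 0.371%, 0.248%, 0.172%, 0.195%, 0.208% and 0.324% in the same order. The groups did not overlap, and the lowest coccyx share, that of stage 61 replicate 2, stood 3.85 times above the hypochord library of the same stage and number. The ratio was largest, at 15.3, in the other pair of that stage. For stage 56 it was 2.75 and for stage 58 it was 10.4. The late shares follow from how the genes were chosen, and the early shares do not.

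**Figure D1:**
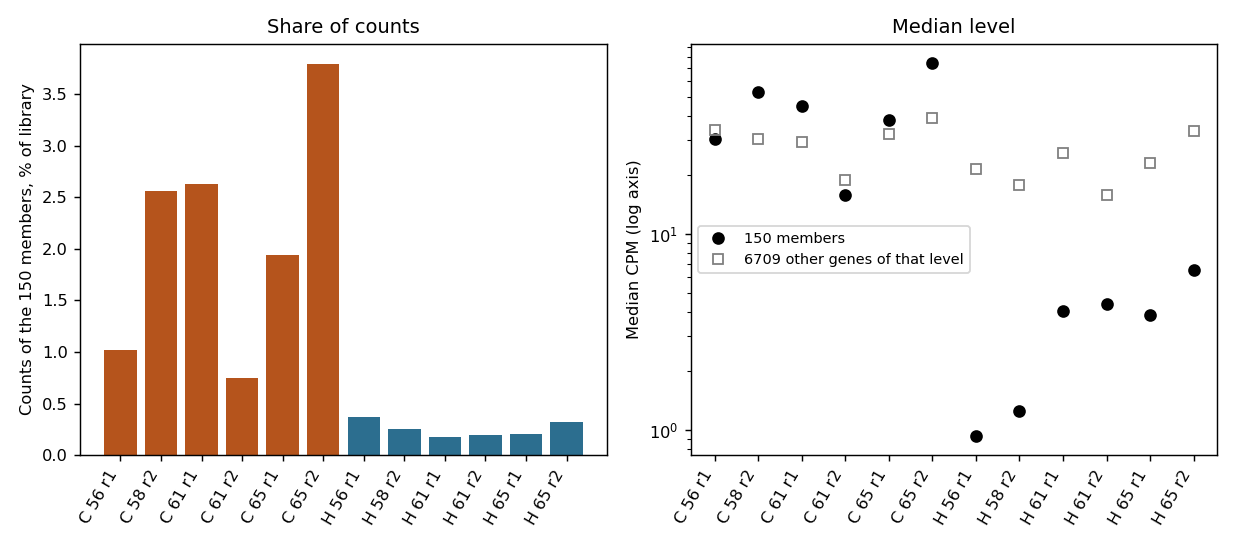
Left, counts of the 150 members as a percent of each library's total (C coccyx, H hypochord; stage; r replicate). Right, median CPM of the members (filled circles) and of the 6709 other genes with a late mean of at least 8 CPM (open squares) on a log axis; the members' median is 15.7 to 74.5 CPM in coccyx and 0.923 to 6.51 CPM in hypochord, while that of the other genes is 15.7 to 38.8 CPM over all 12 libraries.

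The median member stood above the median of other genes in some coccyx libraries and under it in others, and far under it in hypochord. Over the 6 coccyx libraries, in the order above, the members' median was 30.3, 52.6, 45.0, 15.7, 38.2 and 74.5 CPM. The median of the 6709 other genes with a late mean of at least 8 CPM was 33.6, 30.3, 29.4, 18.7, 32.3 and 38.8 CPM. In hypochord the members' median was 0.923, 1.24, 4.05, 4.37, 3.83 and 6.51 CPM, against 21.4, 17.7, 25.9, 15.7, 23.0 and 33.4 CPM for the other genes. The members are thus, at their median, genes of ordinary level in coccyx, and their median is lower in the early than in the late hypochord libraries, while their share of the counts is not.

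The late differences, which chose the members, are given as a description. They ran from 1.37 to 6.93 on the log2(CPM + 1) scale with a median of 2.80, and 32 members reached 4 or more. The mean late coccyx level was 12.1 to 1404 CPM (median 47.8), and the mean late hypochord level 0.620 to 278 CPM (median 5.24). Hypochord levels under 3 CPM were found for 39 members and levels under 10 CPM for 113. The separation was narrow for many of them. The lowest coccyx library exceeded the highest hypochord library by 1.01 to 13.7 times with a median of 1.60, by less than 1.2 times in 35 members and by more than 2 times in 47. Non-overlap of this kind was found in 5.22% of the 6859 genes with a late mean of at least 8 CPM, members included, and nothing is read from it since it was required. At the border of the choice, rank 149 (13.6 against 3.93 CPM) and rank 150 (349 against 140.3 CPM) had differences of 1.38 and 1.37, and the 2 genes just outside it had 1.36 each.

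Presence in hypochord rested on few reads for many members. In 51 members the lowest late hypochord library held 1 to 3 counts, in 44 it held 4 to 9, and in 55 it held 10 or more. Of the 51, 29 were among ranks 1 to 50, 17 among ranks 51 to 100 and 5 among the last 50 ranks. Summed over the 4 late hypochord libraries, members had 8 to 3318 counts, with a median of 80. The other 21 of the first 50 ranks had at least 4 counts in that library, 11 of them at least 10. The ranking itself uses the hypochord level, so low hypochord counts at the first ranks are in part built in.

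The requirement of non-overlap depended on how libraries were scaled. With TMM-normalised CPM, which rescales each total by a factor (0.596 to 1.39 here), 120 of the 150 members (80%) had no overlap between the late tissues, against 5.16% of the 6709 other genes. Non-overlap on CPM was required of the members, so their distance from the other genes here is built in. The mean late difference had a lowest value of 1.16 and a median of 2.61. On CPM the choice had left no difference under 1.37, so nothing is read from values above 0 after rescaling.

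**Figure D2:**
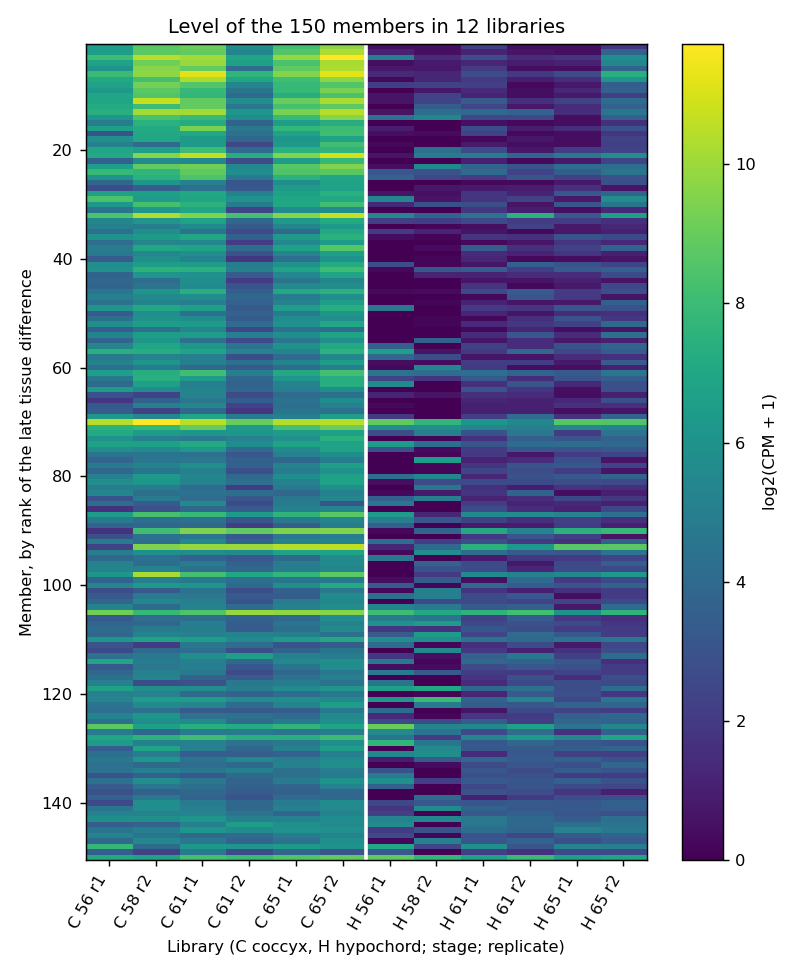
Level of each member, as log2(CPM + 1) in colour, in the 6 coccyx libraries (left of the white line) and the 6 hypochord libraries (right), with members ordered by rank. Coccyx levels are higher at most ranks at all stages, coccyx stage 61 replicate 2 is the darkest coccyx column in ranks 1 to 50, and the 2 early hypochord columns hold most of the values at 0.

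Rank 1 had the widest separation. Its coccyx level was 91.4 CPM at stage 56, 418 at stage 58, 538 and 50.03 at stage 61, and 299 and 836 at stage 65. Its hypochord level was 0.369, 0.413, 3.64, 0.357, 0.365 and 2.61 CPM in the same order. Every coccyx library was above every hypochord library, and the late mean levels differed 247-fold.

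The 5 highest mean late coccyx levels, 1126.5 to 1404 CPM, were those of ranks 3, 6, 21, 70 and 93. Rank 6 had the highest mean, 1404 CPM, from 2388 and 204 CPM at stage 61 and 719 and 2306 CPM at stage 65, against 5.67, 3.03, 5.47 and 169.9 CPM in late hypochord. Rank 3 followed with 1109, 121, 942 and 3395 CPM in late coccyx and 5.87, 1.78, 2.55 and 56.3 CPM in late hypochord. In both, the stage 65 replicate 2 library stood far above the other 3 late hypochord libraries. The early hypochord libraries had 1.66 and 1.38 CPM of rank 6, and 32.0 and 1.79 CPM of rank 3.

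The tissue difference was also present at the early stages, where it was not used in the choice. At stage 56, 129 of the 150 members were higher in coccyx (86.0%), with a median log2(CPM + 1) difference of 3.08. At stage 58, 135 were higher in coccyx (90.0%), with a median of 4.33. Both stages had this direction in 123 members (82.0%) against 48.2% of the 6709 other genes, and 18 members had opposite directions. Both early coccyx libraries were above both early hypochord libraries in 109 members (72.7%), against a background of 35.9% over the 6859 genes. The reverse held for 4 members against a background of 6.93%. All 6 coccyx libraries were above all 6 hypochord libraries in 84 members, and in 3.19% of the 6859 genes, a count that includes the required late part.

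The mean early difference had a median of 3.58 in the members and 1.08 in the other genes, so many genes of this level were higher in early coccyx. The early hypochord libraries also had the fewest genes counted, and in them 48 (32.0%) and 38 (25.3%) of the members were at 0, against 17.5% and 15.1% of the other genes. The part of this lower gene detection in the early difference was not tested. With TMM-normalised CPM the medians were 3.13 and 0.57, and 97 members (64.7%, against 26.8% of other genes) had both early coccyx libraries above both hypochord libraries. The 69 genes that met the rule with smaller late differences had an early median of 1.56, and the 42 genes that met the mirrored rule, hypochord above coccyx, one of -0.017.

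Members with larger late differences also had larger early ones. The early median was 5.05 for ranks 1 to 50 (range 2.38 to 7.52), 3.06 for ranks 51 to 100 (-0.44 to 7.22) and 1.40 for the last 50 ranks (-2.35 to 5.06). Across the 150 members, which share libraries and are not independent, Spearman's rho between the early and the late difference was 0.719. The 50 members of highest rank were higher in coccyx on the early mean without exception. Both early coccyx libraries were above both hypochord libraries in 50 of them, in 39 of the next 50 and in 20 of the last 50. The background was 35.9% of the 6859 genes, and the last 50 ranks were near it. The early median of the other genes was 1.08.

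**Figure D3:**
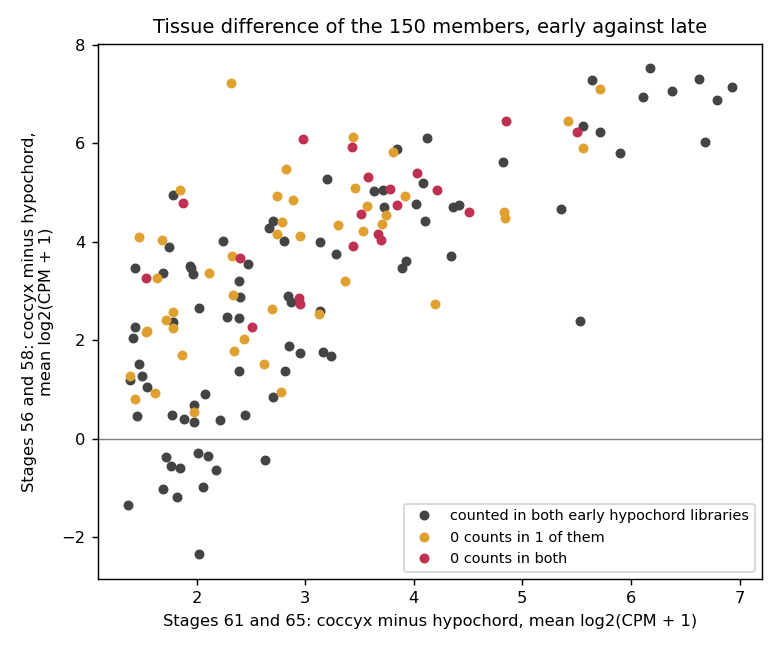
Mean log2(CPM + 1) difference, coccyx minus hypochord, at stages 61 and 65 (horizontal, used to choose the members) and at stages 56 and 58 (vertical, a difference not used in the choice) for the 150 members. Colour shows whether the early hypochord libraries had counts. Early differences run from -2.35 to 7.52, and the members below the zero line have late differences under 3.

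Testing was limited by the 4 early libraries. The p-values of the fit below rest mostly on a spread shared over genes, since a single gene gave only 1 residual degree of freedom. In edgeR's quasi-likelihood fit with stage as a term, 1 residual degree of freedom and 9954 genes, 108 genes were called higher in coccyx (1.08%) and 34 lower (0.342%) at a Benjamini-Hochberg adjusted p under 0.05. All 150 members passed its filter on low counts, which a gene could pass on the 2 coccyx libraries alone. In early coccyx 148 and 150 members had at least 10 counts, and in early hypochord 68 and 74 had. Of the members, 29 were called higher (19.3%) and 0 lower. The 0 is in part built in, since a gene that passed through coccyx alone was low in hypochord. At an unadjusted p under 0.05, 59 members were higher (39.3%, against 4.11% of all genes tested) and 2 lower (1.33%, against 1.67%). The median log2 fold change was 4.59 in the members and 1.70 over all genes tested. The genes tested include many below the late level required of the members, so these shares and medians are not matched for level. Of the 29 called members, 20 had counts in both early hypochord libraries, 6 had 0 in 1 of them and 3 had 0 in both.

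These calls did not hold under every setting. When genes were required to have at least 1 count in all 4 early libraries, edgeR called 0 of 5761 genes and 0 of the 84 members left, with 437 genes (7.59%) and 38 members (45.2%) at an unadjusted p under 0.05. Without the stage term 7 members were called higher (4.67%), a share no larger than that of all genes (4.93%). At an unadjusted p under 0.05 in that edgeR fit, 41.3% of the members and 23.6% of all genes were higher. With DESeq2 58 were called higher (38.7%, against 4.16%).

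Of the members, 84 (56.0%) had counts in both early hypochord libraries. Another 46 (30.7%) were at 0 in 1 of them and 20 (13.3%) were at 0 in both. Among the other genes these shares were 73.8%, 19.8% and 6.44%, so zeros in early hypochord were not particular to the members. A count of 0 in both allows up to 0.236 CPM (3 counts of 12686075, over the pair of libraries). Against that limit the 20 were at least 19.6-fold to at least 486-fold higher in early coccyx, with a median bound of 129-fold. All 20 were counted in each late hypochord library, as the choice required.

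The highest early fold changes belonged to 2 of those 20 genes. ENSXETG00000015061 (rank 15) had 30.5 CPM in coccyx at stage 56, 176 at stage 58, 148 and 12.2 at stage 61, and 92.0 and 159 at stage 65. Its hypochord levels were 0 and 0 at the early stages, then 0.405, 0.178, 0.365 and 2.08 CPM, which are 2, 1, 1 and 4 counts. The tissues were separated in all 12 libraries, and coccyx stage 61 replicate 2 was the lowest coccyx library. The 1141 early coccyx counts against 0 put it at least 486-fold higher in early coccyx (edgeR adjusted p = 0.00041, range over 9 alternatives 5.27e-06 to 0.0525, missing the threshold without the stage term).

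ENSXETG00000015555 (rank 18) had 58.0 CPM in coccyx at stage 56, 129 at stage 58, 81.9 and 14.6 at stage 61, and 69.6 and 108 at stage 65. Its hypochord levels were 0, 0, 0.202, 0.714, 0.365 and 4.17 CPM. The pattern of libraries was that of the gene before, with stage 61 replicate 2 lowest in coccyx and stage 65 replicate 2 highest in hypochord. Its 985 early coccyx counts put it at least 419-fold higher in early coccyx (edgeR adjusted p = 0.00138, range over 9 alternatives 5.01e-06 to 0.0478).

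**Figure D4:**
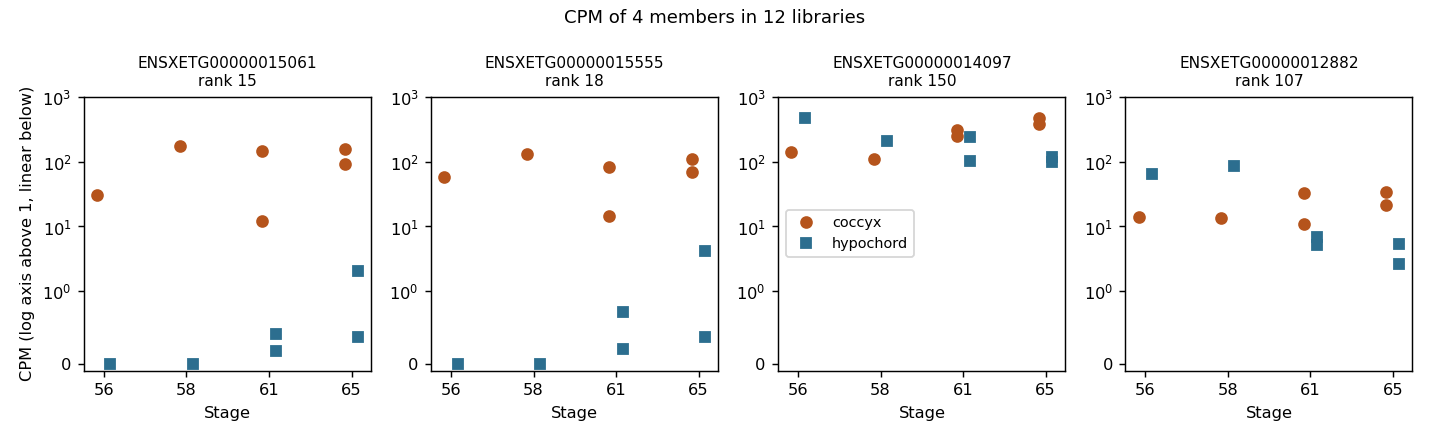
CPM of 4 members by stage in coccyx (circles) and hypochord (squares), 1 point a library, on an axis that is logarithmic above 1 and linear below. The first 2 genes are at 0 in early hypochord and at 12.2 CPM or more in coccyx; in the last 2 the hypochord points lie above the coccyx points at stages 56 and 58 and below them within each tissue pair at stages 61 and 65.

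The lowest early fold changes were negative. ENSXETG00000012882 (rank 107) had 14.1 and 13.4 CPM in early coccyx and 64.1 and 85.9 CPM in early hypochord. Its late levels were 32.9, 10.8, 21.2 and 33.8 CPM in coccyx and 5.26, 6.78, 5.47 and 2.61 CPM in hypochord. Hypochord was the higher tissue in both early pairs and the lower one in all 4 late pairs, and the hypochord levels differed more between early and late than the coccyx levels. The early log2 fold change was -2.86 ± 1.46 (SE), with an edgeR adjusted p of 0.439. Alternatives fitted to the early libraries alone gave 0.112 (DESeq2) to 0.625 (edgeR, at least 1 count in all 4 libraries). The edgeR fit of all 12 libraries gave 0.00735, with a spread taken from the late libraries that were used to choose the members.

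ENSXETG00000014097 (rank 150) had 138 and 110.4 CPM in early coccyx and 471 and 210.4 CPM in early hypochord. Late levels were 306, 244, 374 and 473 CPM in coccyx and 102, 241, 98.8 and 119 CPM in hypochord. At stage 61 replicate 2 the tissues stood at 244 and 241 CPM, the narrowest gap of the list, and coccyx was higher late than early while hypochord was lower, other than in that library. The early log2 fold change was -1.78 ± 0.75 (SE), with an edgeR adjusted p of 0.439. Alternatives fitted to the early libraries alone gave 0.114 (limma voom) to 0.602 (edgeR, at least 1 count in all 4 libraries). The edgeR fit of all 12 libraries gave 0.0415, again with a spread taken from the late libraries.

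These genes belong to 9 members (6%, against 13.3% of the other genes) that were higher in hypochord at both early stages, all of them between ranks 84 and 150. With TMM-normalised CPM there were 11 (7.33%, against 22.9%). From early to late, the mean hypochord level of the 9 was lower late, with differences of -3.70 to -1.26 and a median of -2.58 on the log2(CPM + 1) scale. Their coccyx level moved by -0.67 to 1.45 with a median of 0.36. In 8 of the 9 the hypochord decrease was larger than the coccyx change, taken without its sign. Rank 131, for example, went from 42.3 and 56.9 CPM to between 1.62 and 8.39 CPM in hypochord, while coccyx had 18.6 and 30.1 CPM early and 10.5 to 32.9 CPM late.

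Over the list as a whole, levels from early to late are a description, since the late levels were used in the choice. The coccyx level was higher late in 85 of 150 members with a median difference of 0.11, against -0.08 in the other genes. With TMM-normalised CPM these were 107 members, 0.32 and 0.13, so the coccyx value depends on the scaling and stands about as far above the other genes in both. The hypochord level was higher late in 100 members with a median of 0.75, against 0.69 in the other genes. The hypochord medians with TMM-normalised CPM were 0.72 and 0.59.

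In coccyx, 18 members were higher late by more than 1 on this scale and 3 lower by more than 1. Among the 6709 other genes, 391 were higher and 409 lower by more than 1. With TMM-normalised CPM the counts were 22 and 0 for the members, and 592 and 224 for the other genes. Ranks 90 and 93 had the largest differences, 4.43 and 4.34. Rank 93 had 3.82 CPM in coccyx at stage 56, 705 at stage 58, 939 and 999 at stage 61, and 1354 and 1544 at stage 65. Its hypochord level was 1.48, 15.3, 185, 75.3, 425 and 426 CPM. Both tissues were low at stage 56 and high late, and coccyx was already high at stage 58.

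Rank 90 followed the same course, with 2.15, 279, 703, 463, 713 and 723 CPM in coccyx and 0.185, 12.7, 133, 36.1, 187 and 233 CPM in hypochord. Its row stands next to those of ranks 93 and 70 in the tables. Rank 70 did not share the low stage 56 values: it had 1393 and 3309 CPM in early coccyx and 459.9 and 213 CPM in early hypochord. Whether reads of these neighbouring genes were split among near-identical copies or overlapping genes could not be checked, and their values are uncertain in that respect.

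Rank 98 was the member with the highest early difference outside the first 50 ranks, 7.22. Its coccyx level was 73.0, 1168, 311, 125, 209 and 434 CPM, and its hypochord level 0, 2.89, 48.6, 33.0, 43.4 and 77.7 CPM. The tissues did not overlap at any stage, and hypochord had almost no counts early and 33.0 CPM or more late.

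Within coccyx the members of the first ranks varied together from library to library. The median correlation of log2(CPM + 1) over the 6 coccyx libraries was 0.609 among 11175 pairs of members and 0.271 among other genes. It was 0.872 within ranks 1 to 50, 0.621 within ranks 51 to 100 and 0.261 within the last 50 ranks, which is no higher than in other genes. Over the 4 late hypochord libraries the median correlation was 0.123 among members and 0.430 among other genes, so there the members varied together less than other genes did. It was -0.051 among the 69 genes that met the rule with smaller late differences, so a low value was not particular to the members. The part of low hypochord counts in this was not tested. Coccyx stage 61 replicate 2 was the lowest of the 6 libraries in 100 members (66.7%, against 47.6% of other genes), 46 of them in ranks 1 to 50, and stage 65 replicate 2 the highest in 86 (57.3%, against 29.5%). The highest coccyx library exceeded the lowest by a median of 15.4 times in ranks 1 to 50, 6.54 times in ranks 51 to 100 and 3.98 times in the last 50 ranks, against 3.73 times in other genes. All of these values are of CPM without TMM. Of the coccyx libraries, stage 61 replicate 2 had the lowest TMM factor (0.732) and stage 65 replicate 2 the highest (1.39). The part of the scaling was not tested. These correlations share libraries and depth and are a description.

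The late tissue difference was smallest in the pair of stage 61 replicate 2. The median member difference was 3.18, 1.66, 2.99 and 3.50 on the log2(CPM + 1) scale in the pairs stage 61 replicate 1, stage 61 replicate 2, stage 65 replicate 1 and stage 65 replicate 2. It was under 1 in 42 members in the stage 61 replicate 2 pair, and in 6, 5 and 5 members in the others. The 2 libraries of that pair had the lowest TMM factors of the 12. Without that pair all 150 members still met the rule, but so did others, 1211 genes in all, and 76 of the members were among the 150 of largest difference. Without the stage 65 replicate 2 pair 140 met it and 78 were among the first 150.

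In hypochord, 1 library held much of the late signal of the first ranks. Hypochord stage 65 replicate 2, the shallowest library, was over 5 times the median of the other 3 late hypochord libraries in 21 members of ranks 1 to 50, 3 of ranks 51 to 100 and 0 of the last 50 ranks, 16% of the members against 5.19% of other genes. Rank 4 had 1.42, 0.892 and 1.09 CPM in the other late hypochord libraries and 40.1 CPM in this one, while its late coccyx levels were 101.2 to 1169.8 CPM. Rank 7 had 3.04, 0.892 and 1.82 CPM against 68.3 CPM. The coccyx library of the same stage and number was the highest of the 6 for 34 of the first 50 ranks. The part of these libraries' depth and levels in the hypochord values of the first ranks was not tested.

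Between stages 61 and 65 no member was called changed in either tissue. An edgeR quasi-likelihood fit of the 8 late libraries, with 4 residual degrees of freedom and 10959 genes, called 0 genes (background 0%) in coccyx, in hypochord and in the change of the tissue difference. At an unadjusted p under 0.05 there were 372 genes (3.39%) in coccyx, 1020 (9.31%) in hypochord and 353 (3.22%) for the change of the tissue difference, and among the 150 members 4 (2.67%), 15 (10%) and 5 (3.33%), shares near those of all genes. The lowest adjusted p of any member was 0.978 in coccyx, 0.344 in hypochord and 0.999997 for the change of the tissue difference. DESeq2 called 98, 179 and 2 genes, of which 0, 2 and 0 were members.

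The members' median log2 fold change from stage 61 to 65 was 0.31 in coccyx, with 103 of 150 above 0, and -0.18 in hypochord, with 65 above 0. Over all genes tested the medians were 0.01 and -0.01. In hypochord the median was 0.58 for ranks 1 to 50, -0.21 for ranks 51 to 100 and -0.87 for the last 50 ranks. In coccyx it was 0.54, 0.38 and 0.02. The change of the tissue difference had a median of 0.47 in the members and 0.02 over all genes.

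Single libraries decided these medians. In coccyx the members' median was 1.09 without coccyx stage 61 replicate 1 and 0.60 without stage 65 replicate 1, but -0.12 without stage 61 replicate 2 and -0.05 without stage 65 replicate 2. In hypochord it was 0.32 without hypochord stage 61 replicate 2, -0.31 without stage 61 replicate 1 and -0.41 without stage 65 replicate 2, and 0.02 with limma voom. For the change of the tissue difference it was 1.33 without coccyx stage 61 replicate 1, 0.12 without coccyx stage 61 replicate 2, 0.07 without coccyx stage 65 replicate 2, -0.0015 without hypochord stage 61 replicate 2 and 0.78 without hypochord stage 65 replicate 2. The order by rank in hypochord was also tied to 1 library: without stage 65 replicate 2 the median of ranks 1 to 50 was -0.39 and that of the last 50 ranks -0.46. No direction from stage 61 to 65 is read from these medians.

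**Figure D5:**
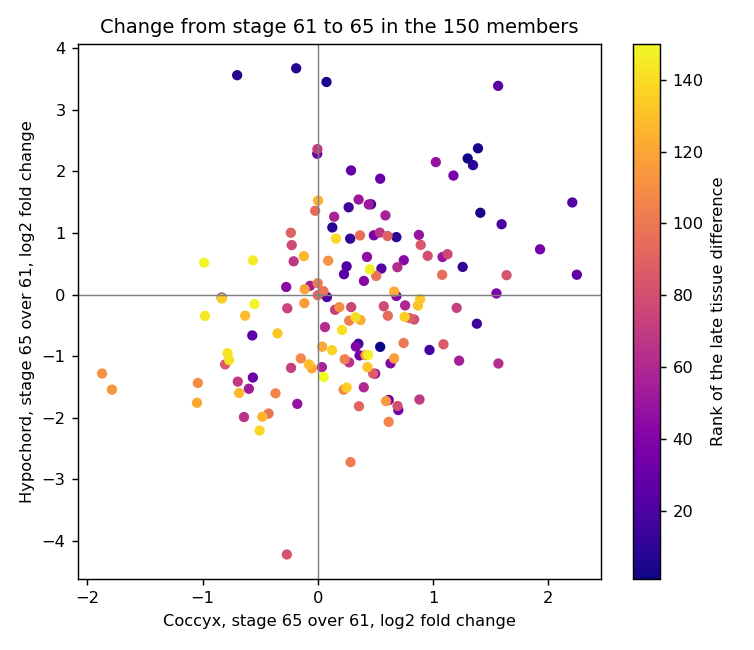
Log2 fold change from stage 61 to 65 in coccyx (horizontal) and hypochord (vertical) from the edgeR fit, 1 point a member, coloured by rank. Points of high rank number (yellow) lie mostly below the horizontal zero line, and those of low rank number (blue) mostly above it; no point passed the adjusted threshold in either tissue, and without hypochord stage 65 replicate 2 the median of ranks 1 to 50 in hypochord is -0.39.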

How the data were processed

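Counts per gene, whole numbers and not normalized, were used as deposited by the authors, per the file headers. HTSeq 0.13.5, cutadapt 1.8.1 and FastQC were used upstream, per the submitters' processing notes. No aligner, genome build, annotation or strand setting is given in the sources used here, so antisense, overlapping and near-identical genes have uncertain counts. The labels name laser capture of frozen tissue and 18 amplification cycles. Groups follow the labelled tissue and stage.

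CPM were computed on each library's total. The tests used edgeR 4.0.16 (R 4.3.3) with TMM, filterByExpr, robust quasi-likelihood fits and Benjamini-Hochberg adjustment over all genes tested. The fits were tested on simulated data whose spread between libraries was smaller than that found in either fit here. That check therefore does not show how well the fits perform on these libraries. The early fit had a common biological coefficient of variation of 1.09 and the late fit of 0.55. Standard errors are approximate. DESeq2 1.42.0, limma 3.58.1 voom, other filters and scalings, all 12 libraries, replicate blocks and left-out libraries were alternatives.

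The members and lists were chosen with earlier results of these data known. The genes given by identifier are the 2 highest and 2 lowest early log2 fold changes among members; other ranks were picked after their values were seen. Marker and pathway lists needed gene names and were not run.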

Additional observations from a re-analysis of the deposited data

Results flagged for a closer look

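There were 9 members with opposite tissue directions at different stages: higher in hypochord in both early pairs and higher in coccyx in all 4 late pairs. In both early pairs 13.3% of the other genes were higher in hypochord, against 6% of the members. The late direction was required by the choice, and the difference between early and late was not tested. Of the genes given by identifier, ENSXETG00000014097 had a mean early log2(CPM + 1) difference of -1.34 and ENSXETG00000012882 one of -2.35, coccyx minus hypochord, against late differences of 1.37 and 2.02. They were singled out for the same reason, and again the difference was not tested.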

How the results depend on the processing

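The number of early calls depended on the fit. Against 142 genes and 29 members, DESeq2 called 468 and 58, limma voom 376 genes, the fit of all 12 libraries 5489 and 118, and that fit with the stage 56 or the stage 58 pair left out 2610 to 3137 genes and 71 to 93 members. Many of the calls in the fit of all 12 libraries were not particular to the members. It called 39.8% of the 12664 genes tested higher in early coccyx and 3.53% lower, against 77.3% and 1.33% of the members. With or without a pair left out, this fit had 1 library in each early group. Its spread between libraries therefore came from the late libraries alone, which were used to choose the members. Nothing is read from the number of its calls. In the early fit, a requirement of at least 1 count in all 4 libraries, chosen after seeing the data, left 0 genes and 0 members. Stage was also the replicate block of the early fit, and without the block 493 genes and 7 members were called. For stage 65 over 61, where 0 genes were called, no filter on low counts gave 7 genes in coccyx and 49 in hypochord, and DESeq2 gave 98 and 179 (2 of them members) and 2 for the change of the tissue difference. Leaving out single libraries gave 0 to 6 genes in coccyx (6 without coccyx stage 61 replicate 1, 3 and 4 without hypochord stage 61 replicates 1 and 2), 0 to 6 in hypochord (6 without hypochord stage 61 replicate 2), and 0 members. The replicate block called 0 genes in either tissue and 1 for the change of the tissue difference. Deviations of equal numbers correlated with r = 0.36 and 0.22 between tissues and -0.13 and 0.03 between stages, so that the numbers were not shown to pair samples. Numbers crossed between stages within a tissue called 0 genes in both tissues, as the uncrossed block did. That cannot decide on pairing, and numbers were not crossed between tissues. Of the members, 115 still met the rule with TMM-normalised CPM, 133 and 147 with stage 61 or 65 alone, and 140 to 150 with a pair left out. After re-ranking, the first 150 genes held 97 of them with TMM, 62 and 68 for the single stages, and 76 to 116 with a pair left out (76 without stage 61 replicate 2, 78 without stage 65 replicate 2). TMM-normalised CPM kept the direction of the members' early, late, and late against early medians, though that of the late median was built in by the choice. The causes were not tested.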
